A study of Rattus norvegicus with 16 samples.

Results

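Rat plantaris muscle that had carried extra load for 28 days was compared with control muscle, over 14557 genes of the 36685 transcript clusters on the array. The comparison used 8 of the 16 arrays of the study: 4 labelled day 28 after surgery and 4 labelled day 0, described as control muscle with no overload. All arrays held total RNA of plantaris from Sprague Dawley rats whose age was given as retired breeders. In the operated rats the Achilles tendons of both legs had been cut out, which disables the gastrocnemius and soleus and leaves the plantaris to bear the load, a procedure called synergist ablation. The design holds no sham operation and no unoperated leg of the same rat, so load, surgery and the 28 days of time cannot be told apart. A gene is a transcript cluster, a set of probes along 1 transcribed locus, that the platform annotation pairs with exactly 1 symbol, and where a symbol had several clusters the brightest one on average over all 16 arrays was kept.

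A muscle that takes over the work of its neighbours grows: its fibres thicken as they add contractile protein, while satellite cells, the stem cells of muscle, divide and fuse with them. Fibres sit in an extracellular matrix of collagens, glycoproteins and proteoglycans, laid down mainly by fibroblasts and fibro-adipogenic progenitors, which passes force to the tendon. Macrophages enter muscle soon after such surgery, clear debris and signal to both cell types. Day 28 is the latest day of the series.

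Values were log2 expression values, on which a difference of 1 is a 2-fold change, and values of dim clusters are compressed, so folds of dim genes are understated. A gene was dim in a group where its mean lay under the median of the 36685 clusters over that group's own arrays. That median was 3.38 at day 0, and the single day 28 arrays had medians of 3.27 to 3.36, so the 2 cutoffs differ slightly. Differences are given as day 28 minus day 0 ± SE (n = 4 arrays in each group), and a gene rose or fell only where limma's p-value, adjusted over all 14557 genes by the Benjamini-Hochberg method, was under 0.05. The labels do not say that replicates were separate animals, so p-values measure only how far these samples spread, and that spread may be technical. The tissue label fitted its defining genes: the 12 measured of 18 had a mean level of 12.79 to 12.82 on the day 0 arrays and 12.68 to 12.83 on the day 28 arrays, near the top of the scale, which ended at 13.64. The arrays correlated across genes at 0.988 to 0.989 within day 0, at 0.987 to 0.990 within day 28 and at 0.979 to 0.984 between the groups. On the first principal component of the 8 arrays (38.1% of the variance) day 0 lay at -27.1 to -18.4 and day 28 at 15.5 to 27.1. Replicate 4 of day 28 was nearest to day 0 there and stood apart on the second component (12.5%), at -29.5 against -5.53 to 17.5 for the other 7 arrays. The number called without it was 1513.

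Of the 14557 genes, 915 were higher (6.29%) and 408 lower (2.8%) at day 28, which makes 1323 (9.09%) called in either direction. Of the calls, 69.2% were rises, and the changes of 2-fold or more were 338 rises and 27 falls. The median gene differed by -0.005, and 3363 genes had an unadjusted p under 0.05. In 2312 genes (15.9%) the 4 arrays of one day all lay beyond the 4 of the other, 1300 upward and 1012 downward. The array medians over these genes were 4.16 to 4.24 at day 0 and 4.42 to 4.49 at day 28. Centring each array on that median shifted all differences by -0.252, and 15.2% of the calls were then rises. Centring on the brighter 50% of genes shifted them by -0.0616 and left 53.8% as rises, so the balance of rises and falls depends on the scaling. The number of falls dropped to 260 without day 0 replicate 1, 263 without day 28 replicate 1, 239 without replicate 2 and 235 without replicate 3 of day 28.

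**Figure D1:**
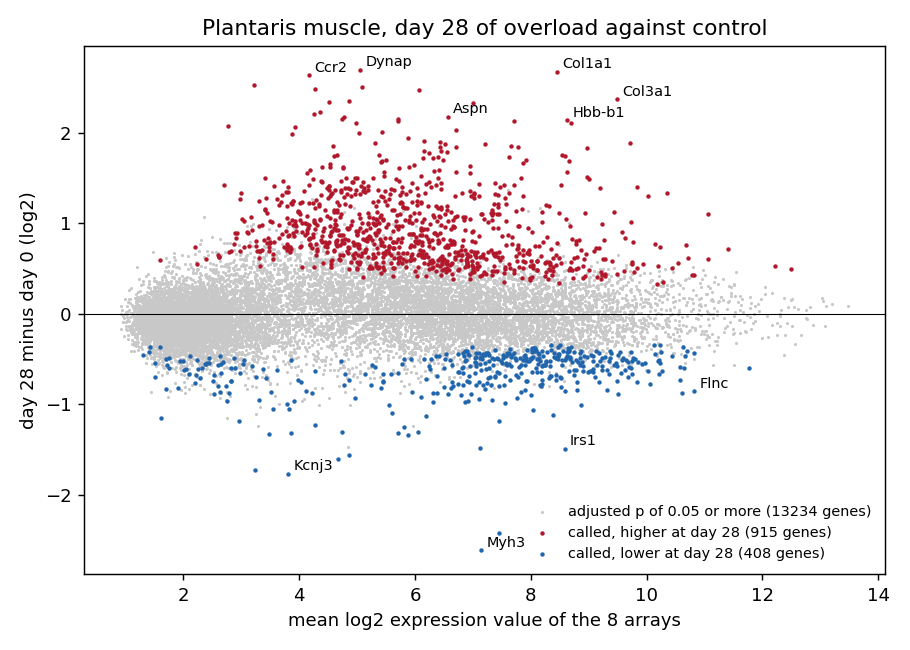
Each point is 1 of the 14557 genes, with its mean log2 expression value over the 8 arrays on the x axis and its day 28 minus day 0 difference (log2) on the y axis. The 915 called rises (red) reach 2.70 and spread over dim and bright genes, and the 408 called falls (blue) reach -2.61.

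The 12 largest rises and falls described here are those of called genes whose groups did not overlap. Dynap, a membrane protein named for binding dynactin, had the largest rise at 2.70 ± 0.51 (6.49-fold, adjusted p = 0.00277). Its values were 4.11, 4.03, 3.22 and 3.45 at day 0 and 6.21, 6.57, 6.98 and 5.83 at day 28, so every overloaded array lay above every control array. Col1a1 and Col3a1, chains of the main fibrillar collagens, rose by 2.68 ± 0.22 and 2.37 ± 0.16. Pi15, a secreted peptidase inhibitor, rose by 2.51 ± 0.38 and Pf4, a chemokine of platelets and macrophages, by 2.47 ± 0.34. Clrn1, a membrane protein known from sensory hair cells, rose by 2.49 ± 0.35, and Htr1b, a serotonin receptor, by 2.21 ± 0.32. The other 5 of the 12 were the chemokine receptor Ccr2, the chemokines Cxcl13, Ccl6 and Ccl24 and the myeloid lectin Clec4a3, at 2.24 to 2.64. Ccr2, Cxcl13, Clrn1, Clec4a3, Ccl24 and Htr1b were dim at day 0, which leaves the order of the 12 unsettled.

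Among these falls the largest was that of Myh3, the embryonic myosin heavy chain, at -2.61 ± 0.35, and the other 11 fell by at most 1.77. Cish, a called fall of -2.42, is not among the 12 because its groups overlapped. Kcnj3, a potassium channel subunit, fell by 1.77, Slc35f1, a member of a solute carrier family, by 1.72 and Acmsd, an enzyme of tryptophan breakdown, by 1.32, and all of these were dim at day 28. Celsr2, an adhesion receptor of the cadherin superfamily, fell from 5.69, 4.93, 5.50 and 5.76 at day 0 to 3.50, 4.37, 3.51 and 4.06 at day 28 (-1.61 ± 0.21, adjusted p = 0.000115). Amy1, an amylase, fell by 1.56, Cryzl2 by 1.32 and Cdh26, a cadherin, by 1.31. Shisa2 fell by 1.48 and Ccdc92 by 1.34. Irs1, the adaptor of the insulin and insulin-like growth factor receptors, fell by 1.49, and Nfil3, a transcription factor tied to the circadian clock, by 1.31. Amylase genes have close copies, so the value of Amy1 may mix them.

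**Figure D2:**
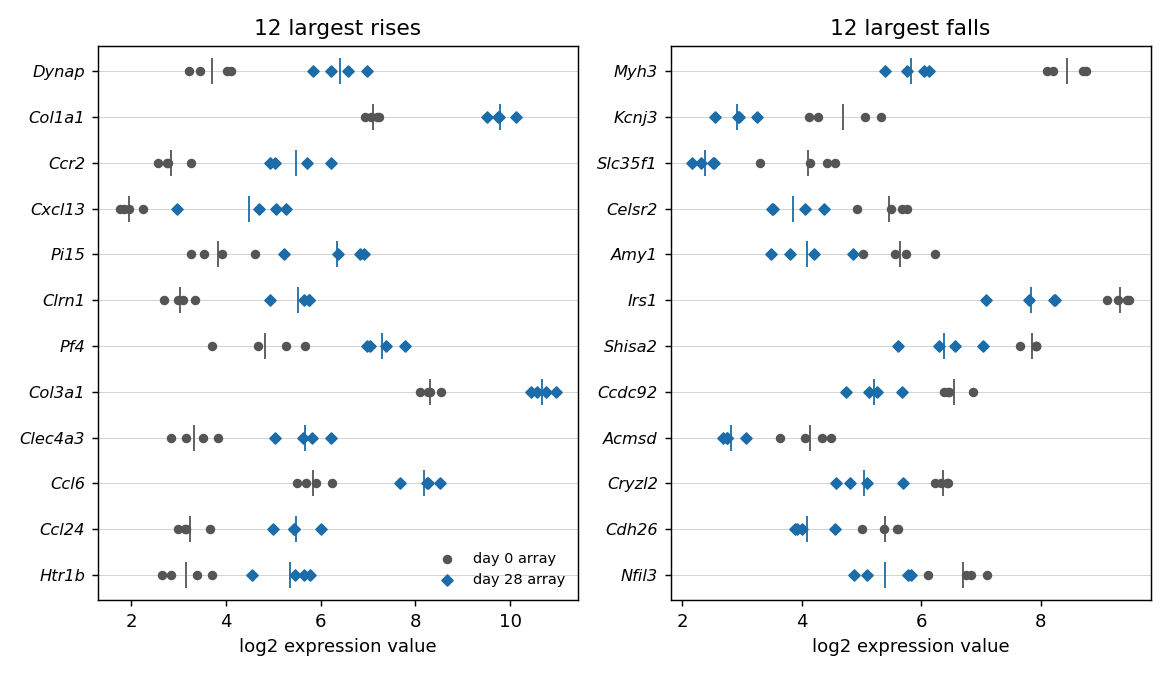
Log2 expression values (x axis) of the 12 genes with the largest rises and the 12 with the largest falls on each of the 4 day 0 arrays (grey circles) and 4 day 28 arrays (blue diamonds), with vertical ticks at the group means. In each gene the groups do not overlap, which the choice of these genes required.

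Each of the extracellular matrix lists held genes that rose. Of the fibrillar collagens and the enzymes that process them, 13 of 18 measured members rose and 0 fell, with a median difference of 1.12 against -0.005 over all genes tested. Col1a1 measured 6.93, 7.07, 7.19 and 7.24 at day 0 and 9.77, 10.11, 9.75 and 9.51 at day 28. Its groups lay far apart, at 6.40-fold (adjusted p = 1.12e-06). Col3a1 went from 8.31, 8.27, 8.53 and 8.10 to 10.43, 10.96, 10.75 and 10.57 (5.18-fold, adjusted p = 1.64e-07), and Col1a2, the partner chain of Col1a1, from 7.39, 7.47, 7.93 and 7.78 to 9.67, 9.95, 9.78 and 9.62 (4.33-fold, adjusted p = 3.73e-06). The SDs of the 4 arrays were small beside these differences in both groups.

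The promoter of Col1a2 is shown as that of a fibrillar collagen gene that rose, and that of Myh3 because it fell most. Col1a1 and Col3a1 rose more than Col1a2, and their promoters were not used here. Both are RefSeq sequences of the assembly GRCr8, 5′ to 3′ on the plus strand, from 250 bases before the gene start to 50 after it: chr4:33518307-33518606 for Col1a2 and chr10:52268935-52269234 for Myh3. Capitals mark, for Col1a2, a CCAAT box (CCAAT on the minus strand) 221 bases and TATAAA 170 bases before the start, and, for Myh3, an E-box (CANNTG, the letters bound by myogenic regulators) 192 bases and TATAAA 30 bases before it. The Col1a2 window also holds 1 CANNTG match, left in lower case.
Col1a2: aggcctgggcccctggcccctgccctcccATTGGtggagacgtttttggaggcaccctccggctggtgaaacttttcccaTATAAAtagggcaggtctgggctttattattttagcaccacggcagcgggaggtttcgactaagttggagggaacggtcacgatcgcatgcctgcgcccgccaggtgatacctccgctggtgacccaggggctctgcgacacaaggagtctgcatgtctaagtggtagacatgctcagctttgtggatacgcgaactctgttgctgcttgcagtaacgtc
Myh3: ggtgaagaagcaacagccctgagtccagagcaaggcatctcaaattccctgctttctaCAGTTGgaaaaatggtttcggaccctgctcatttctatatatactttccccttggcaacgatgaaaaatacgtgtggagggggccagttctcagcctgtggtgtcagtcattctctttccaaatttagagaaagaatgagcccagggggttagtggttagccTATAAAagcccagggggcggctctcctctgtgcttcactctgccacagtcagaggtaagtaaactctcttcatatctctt
Searched on both strands, CCAAT was found in 37.5%, CANNTG in 72.1% and TATAAA in 14.2% of 33469 promoters of this length, so such matches are common and describe the letters only.

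Among the other collagens and the basement membrane genes there were 8 rises and 0 falls in 16 members (median 0.66), led by Col14a1, a collagen on the surface of fibrils (1.85 ± 0.14), and by Col6a1 (1.70 ± 0.16) and Col6a2 (1.40 ± 0.17), chains of the microfibrillar collagen around fibres. Of the matrix glycoproteins, 12 of 20 rose and 1 fell (median 0.96). Thbs2, a thrombospondin, rose by 1.95 ± 0.23, Postn, the matricellular protein periostin, by 1.84 ± 0.20, and Mfap5, of elastic microfibrils, by 1.74 ± 0.17. The member that fell was Ccn1, a matricellular protein induced by stretch and serum, at -1.06 ± 0.24. Among proteoglycans and hyaluronan enzymes there were 9 rises and 0 falls in 19 members (median 0.68). Aspn, a small proteoglycan that binds collagen, measured 4.96, 5.49, 5.69 and 5.76 at day 0 and 7.67, 7.50, 7.60 and 7.84 at day 28 (2.18 ± 0.17, 4.52-fold, adjusted p = 5.7e-07). Bgn and Ogn, of the same family, rose by 1.42 ± 0.18 and 1.30 ± 0.14. The day 28 arrays of these genes were tight and all above the controls.

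Of the matrix proteases and inhibitors, 7 of 21 rose and 1 fell (median 0.37). Mmp2, the gelatinase of connective tissue, went from 7.86, 7.65, 7.49 and 7.65 to 9.31, 9.47, 9.45 and 9.46 (1.76 ± 0.13, adjusted p = 4.66e-07). Mmp14, the membrane protease that activates Mmp2, rose by 1.90 ± 0.19 and Timp1, an inhibitor of such proteases, by 1.44 ± 0.32. Of the markers of fibroblasts and fibro-adipogenic progenitors, 13 of 20 rose and 0 fell (median 1.11), and the list's mean level went from 5.56 to 5.76 on the day 0 arrays to 6.55 to 6.62 on the day 28 arrays. Dpt, a matrix protein of fibroblasts, measured 8.80, 8.95, 8.51 and 8.81 at day 0 and 10.58, 10.67, 10.91 and 10.49 at day 28 (1.89 ± 0.12, 3.71-fold, adjusted p = 1.64e-07). Pi16, a marker of progenitor-like fibroblasts in mouse tissues, rose by 1.87 ± 0.27. In whole muscle, more cells of a type and more RNA per cell cannot be told apart, here or in the lists that follow, and the part of these cells in the matrix result was not tested. Of the 15 tenocyte markers 3 rose and 0 fell (median 0.54), the rises being Thbs4 (1.39 ± 0.21), Cilp (1.30 ± 0.21) and Abi3bp (1.02 ± 0.14). Thbs4 is also among the matrix glycoproteins counted above. Scx (-0.12 ± 0.21), Mkx (-0.04 ± 0.31) and Tnmd (1.10 ± 0.44), named after their values were seen, were not called.

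Genes of macrophages and monocytes were the list with the highest median at day 28, 1.25 over 25 measured members, of which 20 rose and 0 fell. Ccr2, the receptor that draws monocytes from blood, measured 2.77, 3.26, 2.78 and 2.57 at day 0 and 5.72, 4.94, 6.22 and 5.04 at day 28 (2.64 ± 0.24, adjusted p = 2.91e-06). Adgre1, which encodes the macrophage marker F4/80 in mouse, went from 3.26, 3.64, 2.31 and 2.34 to 4.98, 4.53, 5.25 and 5.04 (2.06 ± 0.25, adjusted p = 5.25e-05). Clec4a3 rose by 2.34 ± 0.24. The control means of all of these were dim, and the overloaded arrays stood above them with wider spread in Ccr2. The mean level of the list was 4.20 to 4.46 on the day 0 arrays and 5.30 to 5.67 on the day 28 arrays, and 8 of its 25 members were dim at day 0 against 3 at day 28.

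Complement and antigen presentation genes rose beside them, in 11 of 19 members with 0 falls (median 0.81). C1r, a protease of the classical complement pathway, rose by 1.51 ± 0.14 and C1qc, a chain of its recognition protein, by 1.47 ± 0.21. Cd74, the invariant chain of class II antigen presentation, went from 8.08, 8.37, 8.35 and 8.25 to 9.86, 9.52, 10.08 and 9.53 (1.49 ± 0.18, adjusted p = 4.91e-05). Of the chemokines and cytokines, 8 of 33 rose and 0 fell (median 0.37), and 14 members were dim at day 0. Cxcl13, an attractant of B cells, measured 1.76, 1.95, 2.26 and 1.86 at day 0 and 5.05, 2.97, 5.27 and 4.69 at day 28 (2.54 ± 0.40, adjusted p = 0.000511). Replicate 2 of day 28 was the lowest overloaded array for Cxcl13 and still above the controls. Ccl6, a chemokine of rodent myeloid cells, rose by 2.33 ± 0.19, and Ccl24, which attracts eosinophils, by 2.24 ± 0.25. Of 20 interferon response genes, 2 rose and 0 fell (median 0.28), namely the transcription factor Irf8 (1.18 ± 0.23) and Ifi35 (0.52 ± 0.12); centring the arrays on all genes left that median at 0.02 and ended the call of Ifi35 (0.27, adjusted p = 0.107).

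Markers of other leukocytes were mostly not called. Of 26 lymphocyte and natural killer genes, 2 rose and 0 fell, close to the 6.29% of all genes, and the median of 0.18 turned to -0.07 when arrays were centred on all genes. The 2 were Cd4, the T helper co-receptor that rat macrophages also carry, from 6.48, 6.24, 6.43 and 5.92 to 8.47, 7.70, 8.57 and 7.81 (1.87 ± 0.21, adjusted p = 2.22e-05), and Cd6, a T cell receptor-associated glycoprotein (1.50 ± 0.22). The T cell receptor genes Cd3e and Cd3d, named after their values were seen, had means of 2.28 and 2.23 at day 0 and 2.36 and 1.96 at day 28, which is dim in both groups, and 17 of the 26 members were dim at day 28. Of 19 neutrophil and mast cell genes, 2 rose and 1 fell (median 0.06, -0.19 with arrays centred on all genes). Kit, a receptor of mast cells, rose by 0.93 ± 0.19 and Lcn2, of neutrophil granules, fell by 1.05 and was dim at day 28. Cpa3, a mast cell protease, rose by 1.35 ± 0.36, a call that was lost without day 0 replicate 2 (1.02), day 0 replicate 4 (1.21) or day 28 replicate 3 (1.08), and in a fit of only the compared groups.

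Haemoglobin genes were higher as well. Hbb-b1, a beta globin, measured 7.52, 8.15, 7.52 and 7.06 at day 0 and 9.35, 9.56, 9.86 and 10.04 at day 28 (2.14 ± 0.27, 4.40-fold, adjusted p = 7.27e-05). Hba-a1, an alpha globin, rose by 1.04 ± 0.20, and Ahsp, the chaperone of alpha globin, by 1.42 ± 0.32 from a dim level. These were 3 of the 5 red blood cell genes measured (median 1.04, 0 falls), and the mean level of the 5 was 4.18 to 4.68 at day 0 and 5.25 to 5.70 at day 28. Globin genes have near-identical copies, so the split between them is uncertain. Of 24 endothelial genes 1 rose and 2 fell (median -0.13). Lyve1, a receptor of lymphatic endothelium that some macrophages also carry, rose by 1.60 ± 0.27. Podxl, a sialoglycoprotein of vessel lining, fell by 0.90, and Flt1, a receptor of vascular endothelial growth factor, fell by 0.95 with overlapping groups. The Flt1 call was lost without any one of day 0 replicates 1, 2 and 4 or day 28 replicates 1, 2 and 3, at -0.96 to -0.80. Of 13 pericyte and smooth muscle genes 1 rose and 2 fell (median -0.17), and of 18 adipocyte genes 2 rose and 0 fell (median 0.07, -0.18 with arrays centred on all genes). Of 11 Schwann cell genes 1 rose and 0 fell (median 0.05, negative under both centrings, at -0.21 and -0.02). Over all genes 6.29% rose and 2.8% fell, and 1 or 2 calls do not set such short lists apart. The pericyte rise was Pdgfrb (0.82), and the falls, Lmod1 and Synpo2, lost their calls without any one of 8 and 6 arrays. The adipocyte rises, Cfd and Acly, each lost theirs without any one of 4 arrays. With arrays centred on all genes Cfd, Acly and the Schwann cell rise, Cnp, were not called (0.54, 0.39 and 0.42).

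**Figure D3:**
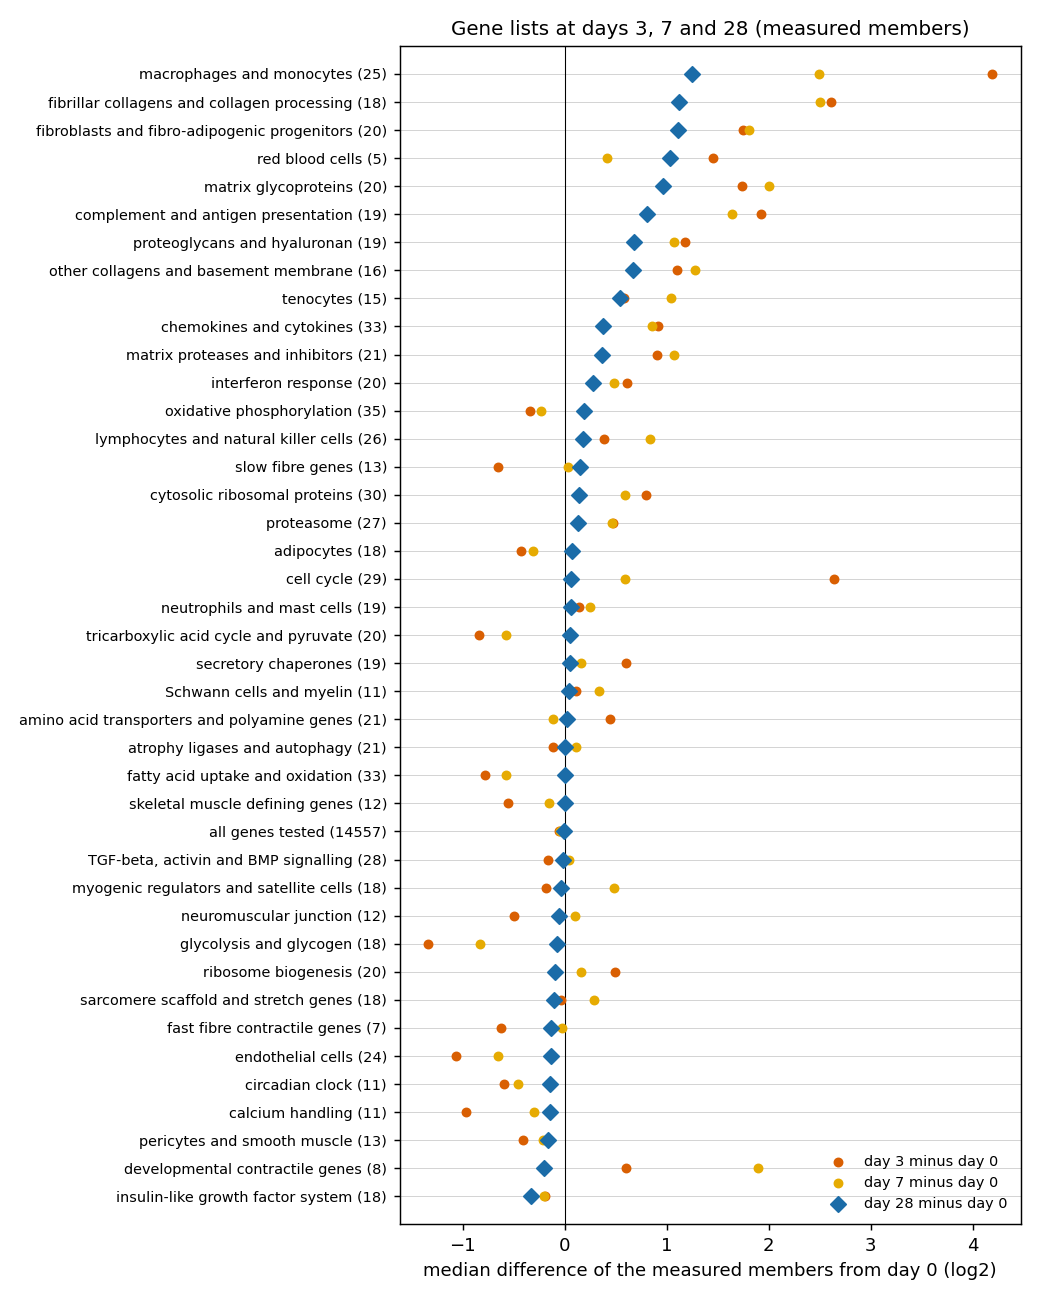
Median log2 difference from day 0 over the measured members of each gene list (number in brackets), at day 3 (orange circles), day 7 (yellow circles) and day 28 (blue diamonds), in order of the day 28 median. The 3 sets of points share the 4 day 0 arrays. Matrix, fibroblast and macrophage lists lie at 0.37 to 1.25 at day 28, and fast fibre, calcium and glycolysis lists at -0.15 to -0.08.

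Of the 12 skeletal muscle defining genes 0 rose and 0 fell, with a median of 0.005 that became -0.25 with arrays centred on all genes and -0.06 with centring on the brighter 50%. Acta1, skeletal alpha actin, differed by 0.09 ± 0.10 and Ckm, the muscle creatine kinase, by 0.09 ± 0.10 (adjusted p = 0.628 and 0.676), and both turned negative with arrays centred on all genes, at -0.16 and -0.17. Both sit near the ceiling of the scale, where differences are compressed. Of 7 fast fibre contractile genes 0 were called (median -0.13). Myh4, the myosin of the fastest fibres, measured 12.91, 12.79, 12.75 and 12.66 at day 0 and 12.55, 12.63, 12.75 and 12.25 at day 28 (-0.23 ± 0.21, adjusted p = 0.571), and its groups overlapped. Of 11 calcium handling genes 0 were called (median -0.15). Over all genes tested 9.09% were called, so 0 calls in lists this short lie near that share and do not show unchanged levels. Myosins share long stretches of sequence, so values of single myosin genes carry that uncertainty.

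Of 13 slow fibre genes 3 rose and 0 fell, with a median of 0.15 that turned to -0.10 with arrays centred on all genes. Myh7, the slow myosin heavy chain, measured 10.96, 11.31, 11.46 and 11.68 at day 0 and 10.60, 11.15, 11.52 and 11.96 at day 28 (-0.05 ± 0.26, adjusted p = 0.941). The 2 groups covered the same range for Myh7. Those that rose were listed for their part in the slow thin filament. Tnnc1, the slow troponin C, rose by 0.77 ± 0.20 with overlapping groups, Tpm3, a slow tropomyosin, by 0.68 ± 0.18, and Tnnt1, the slow troponin T, by 0.61 ± 0.18. Their earlier courses differed. Relative to day 0, Tpm3 stood at 2.09 on day 3 and 1.12 on day 7, Tnnc1 at 0.47 and 0.71, and Tnnt1 at -0.53 and 0.24. The 3 calls at day 28 were near the threshold. That of Tnnc1 was lost without day 0 replicate 1 (0.63) or day 28 replicate 2 or 3 (0.72 each), that of Tpm3 without day 0 replicate 1 or 3 or day 28 replicate 3 or 4 (0.55 to 0.69), and that of Tnnt1 without day 0 replicate 1, 2 or 3 or day 28 replicate 2, 3 or 4 (0.50 to 0.64). All 3 were lost with arrays centred on all genes, at 0.36 to 0.52, those of Tpm3 and Tnnt1 also in a fit of only the compared groups, and that of Tnnt1 with centring on the brighter 50% (0.55) and with the replicate number as a fixed block.

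Of the 8 genes listed for developing fibres, 1 fell and 1 rose. Myh3, whose promoter stands above, measured 8.10, 8.21, 8.77 and 8.72 at day 0 and 6.05, 6.14, 5.40 and 5.75 at day 28 (6.12-fold lower, adjusted p = 0.000113). All overloaded arrays lay more than 1 log2 unit below the controls. Vim, the intermediate filament of mesenchymal cells, rose by 0.77 ± 0.14, and the other 6 of the 8 developmental genes were not called (median -0.20). Among 18 genes of satellite cells and of myogenic regulation 2 rose and 0 fell (median -0.04). Cd82, a tetraspanin of satellite cells and leukocytes, rose by 0.95 ± 0.18, and Myf5, an early myogenic regulator, by 0.77 ± 0.20. The Myf5 call was lost without day 0 replicate 1 (0.68) or 4 (0.72) or day 28 replicate 2 (0.70) or 3 (0.71), and with arrays centred on all genes (0.52). Myod1 differed by -0.22 ± 0.23 and Myog by 0.18 ± 0.27, neither called, and Myog became -0.07 with arrays centred on all genes. Of 29 cell cycle genes 1 rose and 1 fell (median 0.06, -0.19 with that centring and -0.02 under cyclic loess), and 13 of them were dim at day 0. Over all genes tested 6.29% rose and 2.8% fell.

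Of 18 sarcomere scaffold and stretch genes 1 rose and 1 fell (median -0.11), where 6.29% and 2.8% of all genes did. Flnc, the muscle filamin, fell from 11.34, 11.15, 11.28 and 11.25 to 10.41, 9.92, 10.26 and 11.005 (-0.86 ± 0.18, adjusted p = 0.00467). Replicate 4 of day 28 lay closest to the controls for Flnc. The member that rose was Ankrd23, another ankyrin repeat gene (0.50 ± 0.13). Its call was lost without day 0 replicate 3 (0.49) or 4 (0.40) or day 28 replicate 1 (0.46). It was also lost with arrays centred on all genes (0.24) and in a fit of only the compared groups. Ankrd1, the stretch-induced ankyrin repeat protein, differed by -0.35 ± 0.18 and was not called, but was with arrays centred on all genes (-0.60, adjusted p = 0.0227). Of 12 neuromuscular junction genes 1 rose and 3 fell (median -0.05). Scn4a, the sodium channel of the muscle membrane, fell from 10.11, 9.81, 9.98 and 9.88 to 8.98, 9.11, 8.94 and 9.21 (-0.88 ± 0.15, adjusted p = 0.00126). Chrne, the adult subunit of the acetylcholine receptor, fell by 0.62, a call that was lost without day 28 replicate 3 (-0.52), while Gadd45a, a stress gene that also rises on denervation, rose by 0.78 ± 0.17.

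The growth factor pathway lists held both directions, as did all genes tested, of which 6.29% rose and 2.8% fell. Of 18 genes of the insulin-like growth factor system 2 rose and 4 fell, and the median of -0.33 was the lowest of the 40 lists. Irs1 measured 9.48, 9.44, 9.11 and 9.29 at day 0 and 8.22, 7.09, 7.81 and 8.24 at day 28 (2.81-fold lower, adjusted p = 0.000264). Irs2, the other main adaptor of these receptors, went from 7.95, 8.09, 7.53 and 8.63 to 7.45, 6.10, 6.47 and 7.44 (-1.18 ± 0.30, adjusted p = 0.0174). Both adaptors were lower on every overloaded array, but the Irs2 call was lost without day 0 replicate 4 (-0.99) or day 28 replicate 2 (-0.93) or 3 (-1.05), and in a fit of only the compared groups. Igfbp6, a binding protein of the growth factors, rose by 1.44 ± 0.14. Of 28 genes of transforming growth factor beta, activin and bone morphogenetic protein signalling, 4 rose and 3 fell (median -0.01). Among them Chrdl1, an antagonist of bone morphogenetic proteins, rose by 1.19 ± 0.16, and the target genes Id1 and Smad7 fell by 0.98 and 0.93. Mstn, the myostatin gene that limits muscle mass, measured 8.71, 8.91, 8.99 and 9.16 at day 0 and 8.67, 8.37, 8.15 and 7.61 at day 28 (-0.75 ± 0.31, adjusted p = 0.157). All its overloaded arrays lay below the controls, it was not called, and it was called without day 3 replicate 4 (-0.75) or with arrays centred on all genes (-0.997).

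Most energy and protein turnover genes were not called, which also holds for all genes tested, of which 6.29% rose and 2.8% fell. Of 18 glycolysis and glycogen genes 0 rose and 1 fell (median -0.08): Hk2, the muscle hexokinase, by 0.64, a call that was lost in a fit of only the compared groups (adjusted p = 0.0574). Of 35 oxidative phosphorylation genes 1 rose and 0 fell (median 0.19, -0.06 with arrays centred on all genes), of 20 citric acid cycle genes 1 rose and 0 fell (median 0.06, and negative under both centrings), and of 33 fatty acid genes 1 rose and 1 fell (median 0.005, negative under both centrings). The members that rose in the last 2 lists were Pdk3 (0.86 ± 0.15), an inhibitor of pyruvate oxidation, and Ucp2 (0.87 ± 0.17), an uncoupling protein that macrophages express. The oxidative phosphorylation rise, Uqcrq (0.47), and the fatty acid fall, Cpt1a (-0.67), were near the threshold. Each lost its call without any one of 12 arrays. Ppargc1a, the regulator of mitochondrial biogenesis, differed by -0.49 ± 0.19 and was not called (adjusted p = 0.114); it was called without day 28 replicate 4 (-0.65) and with arrays centred on all genes (-0.74). Of 30 ribosomal protein genes 3 rose and 0 fell (median 0.14, -0.11 with that centring), in a family with many near-identical copies. Their calls were lost without any one of 4 arrays (Rpl30), 9 arrays (Rpl3) or 11 arrays (Rpl22). Fbxo32 and Trim63, the ubiquitin ligases of atrophy, differed by -0.29 ± 0.20 and 0.27 ± 0.14, neither called. The lysosomal proteases Ctsl (0.83 ± 0.17) and Ctsb (0.55 ± 0.12), also abundant in macrophages, rose, and Ctsb was not called with arrays centred on all genes (0.30). Among 21 amino acid transporter and polyamine genes 1 rose and 4 fell (median 0.02, negative under both centrings and cyclic loess). The rise, Slc7a7 (0.70), was near the threshold and lost its call without any one of 11 arrays. Slc7a2, a carrier of cationic amino acids, fell by 1.12 and Slc38a4, a carrier of neutral ones, by 0.77.

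The day 28 arrays were then set against those of days 7 and 3, which gave 2566 calls (17.6%) and 4759 calls (32.7%). These comparisons share the day 28 arrays with the one against day 0, and the earlier differences from day 0 share its day 0 arrays, so values are given side by side. Relative to day 0, the fibrillar collagen list had medians of 2.61 (day 3), 2.50 (day 7) and 1.12 (day 28). At day 28, 13 of its 18 members were lower than at day 7, as were 1366 of all 14557 genes. Col1a1 was 4.35, 4.68 and 2.68 above day 0 on the later days in turn, and its day 28 arrays were lower than those of day 7 (-2.00 ± 0.22, adjusted p = 1.88e-05). The macrophage list had medians of 4.19, 2.49 and 1.25, and 22 of 25 members were lower at day 28 than at day 7. Fibroblast markers had medians of 1.75, 1.80 and 1.11, with 11 of 20 lower at day 28 than at day 7. Within that list Dpt differed from day 7 by -0.45 ± 0.12 (adjusted p = 0.0151) and Pi16 by -0.27 ± 0.27, which was not called. Cell cycle genes had medians of 2.63, 0.60 and 0.06 on these days, and glycolysis genes -1.34, -0.83 and -0.08.

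**Figure D4:**
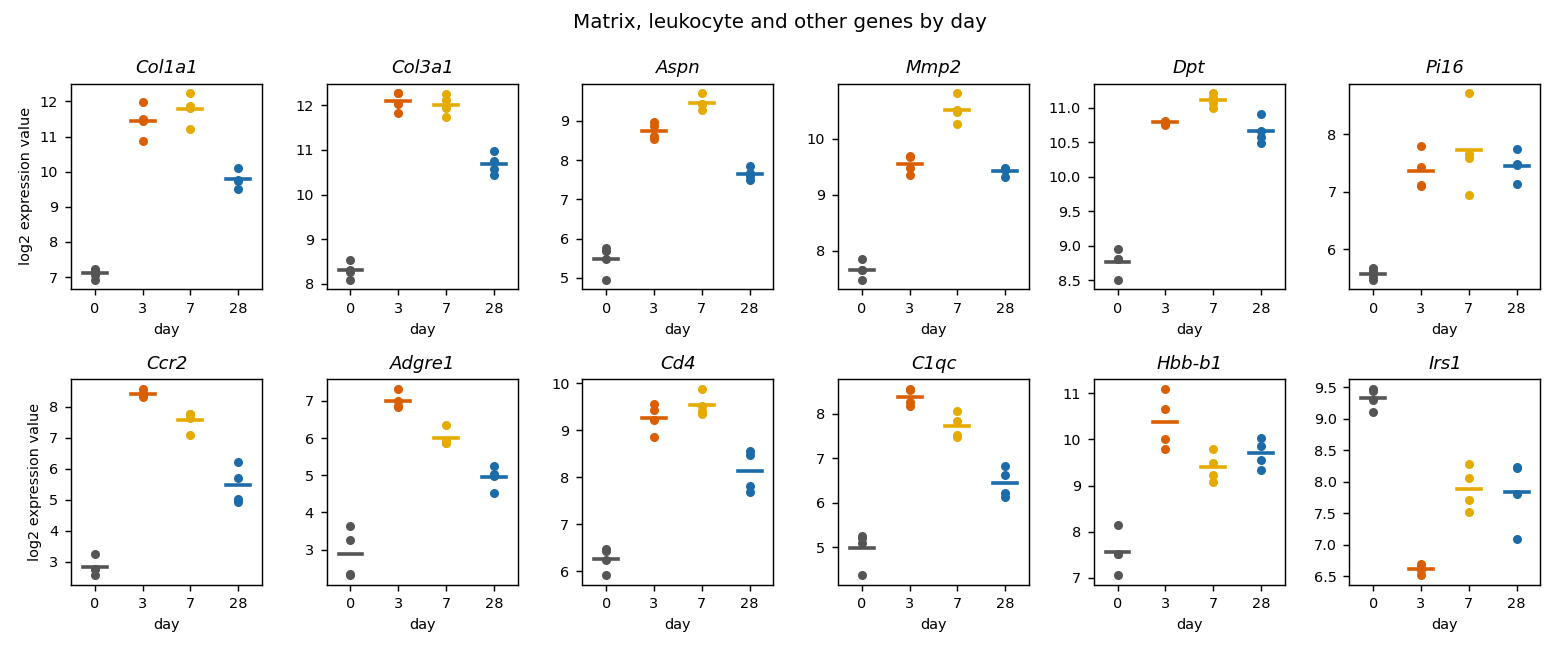
Log2 expression values (y axis, different ranges) of 12 genes on the 4 arrays of each day, with bars at the group means. Matrix and macrophage genes are highest at day 3 or 7 and remain above day 0 at day 28, where Col1a1 lies at 9.51 to 10.11 against 6.93 to 7.24, while Irs1 lies below day 0 on every later array.

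For some genes the difference between day 28 and day 7 was not called. Ccl24 was above day 0 by 2.24 at day 28 and differed from day 7 by 0.08 ± 0.25, Pf4 differed from day 7 by -0.23 ± 0.34 and Hbb-b1 by 0.30 ± 0.27, none of them called. Irs1 differed from day 7 by -0.05 ± 0.22 and Slc35f1 by -0.29 ± 0.24, also not called, and a p-value over the threshold does not show that the levels were equal. Other genes that stood far from control earlier were not called at day 28. Sln, the small regulator of the calcium pump, measured 7.90, 8.63, 9.12 and 8.25 at day 28, 3.50 below day 7 on the log2 scale (-3.50 ± 0.25, adjusted p = 2.16e-07) and -0.48 ± 0.25 from day 0. With arrays centred on all genes Sln was called lower than at day 0 (-0.73, adjusted p = 0.0379), as was Ankrd1. Ankrd1 likewise lay at -3.15 ± 0.18 from day 7.

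At day 28, 35 genes were called higher (0.24%) and 17 lower (0.117%) than at each of days 0, 3 and 7. Dynap was among them, at 0.16 above day 0 on day 3, 0.54 on day 7 and 2.70 on day 28, with day 7 arrays spread from 2.35 to 5.26. Nppc, the precursor of C-type natriuretic peptide, measured 5.31, 5.50, 5.09 and 5.37 at day 0, 4.81, 3.90, 4.52 and 4.22 at day 3, 5.68, 5.10, 5.30 and 5.19 at day 7 and 6.23, 7.32, 6.64 and 6.06 at day 28. All its day 28 arrays lay above all others, by 1.24 ± 0.24 from day 0. Mutyh, a DNA repair glycosylase, rose by 1.86 ± 0.24 from day 0, although 1 day 28 array (4.61) lay within the range of days 3 and 7. Cd6 (1.50), Plekha6 (1.45), a protein with a pleckstrin homology domain, and Ehd3 (1.11), a regulator of membrane traffic in endosomes, completed the 6 largest. Ehd3 went from 6.67, 6.87, 6.86 and 7.05 at day 0 to 8.07, 7.93, 8.22 and 7.66 at day 28, and 1 day 7 array (7.85) reached into that range.

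Myh3 had the largest fall of this kind: it was 2.61 above day 0 at day 7 (9.75 to 11.86) and 2.61 below it at day 28. Nfil3 was lower at day 28 by 1.31 from day 0 and 0.75 ± 0.24 from day 7. Ccn1 measured 8.54, 8.40, 8.67 and 8.66 at day 0 and 7.47, 6.83, 7.51 and 8.23 at day 28, after values of 9.31 to 10.37 at day 7, so its day 28 arrays lay below those of every other day. Acsl4, a ligase that activates arachidonic acid, fell by 0.85 from day 0. Pvr, a nectin-like adhesion receptor, fell by 0.80 and Otud1, a deubiquitinase, by 0.73. The Pvr call against day 0 was lost without day 0 replicate 1 or 3 or day 28 replicate 1, 2 or 3 (-0.80 to -0.73), and the Otud1 call without day 0 replicate 1 or 4 or day 28 replicate 2 or 3 (-0.69 to -0.63). The number of such genes depended on single arrays. The 35 became 15 without day 0 replicate 1 or day 28 replicate 3, 18 without day 0 replicate 4 or day 28 replicate 2, and 22 without day 0 replicate 3 or day 7 replicate 1 or 4. The 17 became 8 without day 0 replicate 1, 10 without day 0 replicate 3 or 4 or day 7 replicate 1, 4 without day 28 replicate 2 and 6 without day 28 replicate 3.

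**Figure D5:**
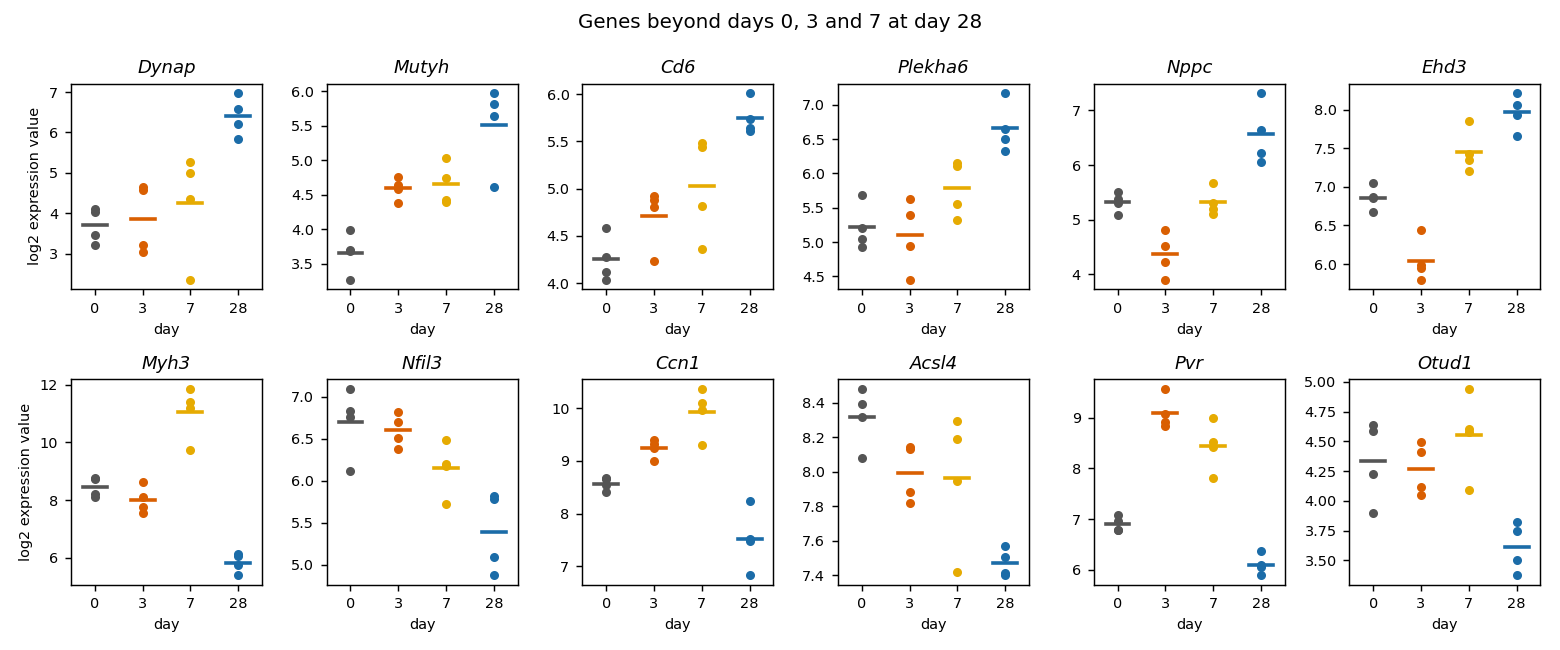
Log2 expression values (y axis, different ranges) by day, with 4 arrays per day and bars at the group means, for the 6 largest rises (top row) and 6 largest falls (bottom row) among genes called against days 0, 3 and 7 alike. Day 28 lies beyond the other days in the means of all 12, as the choice required, and single arrays overlap those of another day in Mutyh, Ehd3, Nfil3 and Acsl4.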

How the data were processed

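Total RNA of 16 plantaris samples, 400 ng per reaction per the labels' protocols, was hybridised to 16 arrays of the Affymetrix design Rat Gene 2.1 ST. The table the authors deposited holds a log2 value of each transcript cluster on each array. The submitters' processing notes name RMA, oligo and limma. Their versions and parameters, the genome build and scan dates are not given in the sources used here. The platform annotation listed 15653 of 36685 clusters, 14824 of them with 1 symbol and 829 with several, and the other 21032 are unnamed here. For 234 genes with several clusters the brightest was used. RefSeq (GRCr8) held 14417 of the 14557 gene identifiers.

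The tests used R 4.3.3 and limma 3.58.1, with a group-means fit of the deposited log2 values over all 16 arrays without further normalization, empirical Bayes without a trend (12 residual and 4.99 prior degrees of freedom), two-sided tests, and Benjamini-Hochberg adjustment within each comparison. The script was tested on simulated data. Arrays have no read depth, and their number limits the precision.

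Genes are named by a rule: the 12 largest rises and falls among called genes with no overlap between the groups, the 6 largest of each direction among genes called against days 0, 3 and 7, up to 3 called members of each list, and a panel called or not. Symbols of predicted loci were passed over, and genes outside the rule are said to be named after their values were seen. Members and lists were chosen with earlier results of these data known. Of 1060 listed symbols in 41 lists, the panel included, 751 were measured. Same-numbered arrays of day 0 and day 28 deviated from their group means with correlations of -0.018 to 0.034, and differently numbered ones with -0.030 to 0.026. Such values cannot settle whether the numbers pair samples, since a link through few genes would barely move them. The labels name no pairing. The alternatives were another prior, array weights, filters on dim genes, averaging a gene's clusters, 3 scalings between arrays, a fit of only the groups compared, a replicate block, all clusters, and leaving out each array in turn.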

Additional observations from a re-analysis of the deposited data

Results flagged for a closer look

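In 10 of 252 tests in 1 group of 4 arrays, a single array lay apart from the other 3 by Dixon's test. Chance gives such a gap in about 1 in 20 groups. Most tests were of 1 named gene, the rest of array medians or principal components, and all 10 flags were genes. For Clrn1, day 28 replicate 4 was low, at 4.93 against 5.64 to 5.76, and for Mmp14 it was low too, at 7.03 against 7.45 to 7.53. Day 28 replicate 1 was low for Mmp2 (9.31 against 9.45 to 9.47) and for the slow troponin gene Tnnc1 (10.66 against 11.20 to 11.22), and high for Tyms, a gene of thymidine synthesis (5.79 against 5.36 to 5.41). Without that array the rise of Tyms was 0.60 and no longer called, by limma with adjusted p = 0.068, nor was it without day 0 replicate 2 (0.63). Day 28 replicate 2 was high for Cdh26, at 4.56 against 3.88 to 4.00. Among control arrays, replicate 2 was low for Shisa2 (7.66 against 7.92 to 7.93) and high for Psmd1, a proteasome subunit (10.91 against 10.78 to 10.79), whose fall of 0.36 lost its call without any one of the 4 day 0, 4 day 3 or 4 day 28 arrays or day 7 replicate 2 or 4 (-0.39 to -0.33). Day 0 replicate 3 was low for the cathepsin gene Ctsl (8.22 against 8.32 to 8.34) and high for the ribosomal protein gene Rpl30 (11.03 against 9.07 to 9.39). The rise of Rpl30 was 1.34 with that array and 1.79 without it, and its call was lost without day 0 replicate 1 (1.14), 2 (1.19) or 4 (1.24) or day 28 replicate 3 (1.19).

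Myh3, Ccn1 and Pvr, named above among the genes lower at day 28 than on each other day, changed side between day 7 and day 28. Each lay above day 0 at day 7 and below it at day 28. Their day 28 minus day 7 differences were -5.22 (Myh3), -2.42 (Ccn1) and -2.33 (Pvr).

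Some clusters with no listed gene were also called. When all 36685 clusters were tested, 655 of the 21032 unlisted ones (3.11%) were called between day 28 and day 0. Among these, 350 were higher and 305 lower. In the same test 1043 of all 36685 clusters were called higher and 560 lower, a larger share than among the unlisted ones.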

How the results depend on the processing

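Of the 111 named genes called, 80 kept their call without each of the 16 arrays in turn, and 31 lost it without at least 1. All that were tested kept it with array weights, both filters on dim genes, the mean of clusters and the replicate number as a random block. Other settings lost 2 (trend and robust prior), 4 (cyclic loess), 6 (centring on the brighter 50%), 18 (centring on all genes) and 19 calls (only the compared groups). No named call reversed. Uncalled genes changed sign with centring on all genes (Myog -0.0735, Acta1 -0.16, Ckm -0.17) and, for Myh7, without single arrays, where it lay between -0.26 and 0.19. With that centring, day 28 against day 0 gave 544 rises and 3043 falls, the rises against days 7 and 3 were 2014 and 4226, and 22 and 36 genes, in place of 35 and 17, lay above and below all other days. Centring on the brighter 50% gave 649 falls. The 35 and 17 were 58 and 26 without the dimmest 50% of genes, and 21 and 10 with only the compared groups. Leaving out 1 array gave 235 to 498 falls against day 0, and 15 to 39 genes above and 4 to 20 below all other days. With all clusters, rises were 1859 against day 7 and 4602 against day 3, with 3854 falls. Medians changed sign in 15 of 40 lists with centring on all genes, 7 on the brighter 50% and 2 under cyclic loess. The replicate block gave 1344 calls as a fixed term, which lost 6 named calls, and 1358 as a random one (correlation 0.00736). The labels do not say that the replicate numbers pair samples. The cause of these changes was not tested. Dim genes and genes near the top of the scale limit what can be measured.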

Other observations

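Cish, a target gene of growth hormone and cytokine signalling, had the largest called fall apart from Myh3 and is named here after its values were seen, since its groups overlap. It measured 9.10, 9.61, 7.88 and 8.07 at day 0 and 8.32, 5.59, 5.55 and 5.52 at day 28, so replicate 1 of day 28 lay among the controls and the other 3 arrays well below them (-2.42 ± 0.56, limma adjusted p = 0.0111). It had also fallen by 2.65 at day 3 and 2.77 at day 7 against the same day 0 arrays.

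Of 11 circadian clock genes 0 rose and 2 fell at day 28 (median -0.14), with Clock at -0.40 ± 0.12; that call was lost without any one of the 4 day 0 arrays or day 28 replicates 1, 2 and 3, at -0.42 to -0.34. Of 27 proteasome genes 1 rose and 1 fell, of 20 ribosome biogenesis genes 1 rose and 0 fell, of 19 secretory chaperone genes 1 rose and 1 fell, and of 21 atrophy and autophagy genes 2 rose and 0 fell, with medians of 0.13, -0.09, 0.05 and 0.006. With arrays centred on all genes all of these medians were negative. Over all genes tested 6.29% rose and 2.8% fell. In these lists the calls of Psmb6, Rrp9, Ddit3 and Atf6 were lost without any one of 3, 12, 5 and 10 arrays in turn.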
